A study of Mus musculus with 10 samples.

Results

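The genes described here encode the collagens, the laminin chains and 5 further matrix proteins (the nidogens Nid1 and Nid2, the heparan sulfate proteoglycan Hspg2, fibronectin Fn1 and Sparc). They were chosen by symbol, as every gene named Col or Lam with a chain number plus those 5, and came to 57 of the 18193 genes that could be read. RNA was measured on Affymetrix microarrays in a study that screened for genes of the first meiotic division, and all mice were C57BL/6 males with no allele or treatment named in the labels. The spermatogonia, the mitotic germ cells, were taken at 8 days of age as fraction 2 of a Percoll density gradient. The leptotene/zygotene spermatocytes, which begin recombination and pairing, were fraction 5 at 12 days, and the pachytene spermatocytes, with fully paired chromosomes, were fraction 8 at 15 days. The remaining groups, whole testis and a mixture of 11 somatic tissues, were both taken at 15 days, and the mixture is called the somatic mix here. It held skin, muscle, brain, spleen, kidney, heart and lung besides the liver and the stomach, intestine and colon. Each fraction was enriched for its stage and not pure, stage and age changed together, and the cells had been released with hyaluronidase, trypsin and collagenase, enzymes that digest the matrix itself. A stage name below stands for the whole fraction, with any other cells in it.

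A basement membrane is the thin sheet of matrix on which epithelia rest. It is built from a laminin network, in which each molecule joins an alpha, a beta and a gamma chain, and a type IV collagen network, which nidogens and perlecan link together. In the testis such a sheet surrounds each seminiferous tubule. Sertoli cells inside the tubule and peritubular myoid cells around it both make its components, while fibrillar collagens are made mainly by the mesenchymal cells of the interstitium and tubule wall.

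Of the 57 genes, 52 were above the signal floor in at least 1 group and 30 in all 5. Col10a1, Col17a1, Col24a1, Col9a2 and Col9a3 were at the floor throughout. The floor is the signal under which a probe set could not be told from background (87.6 on the first of 2 array designs and 47.0 on the second), and a difference from a group at the floor is a lower bound. Each group had 1 array per design, 47 of the genes were read from the first design and 10 from the second, and so no difference was tested across replicates. Differences are log2 differences of scaled signal. A gene is said to have risen or fallen where the difference was at least 4-fold, and to be higher or lower where it was at least 2-fold. Over 100 probe sets present on both designs, the 95% limit of the array error of a difference ran from 0.351 (leptotene/zygotene minus spermatogonia) to 0.571 (whole testis minus somatic mix). This error covers the measurement and not the spread between animals.

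The spermatogonia fraction held the highest signal of most of these genes, and the pachytene fraction the lowest of most, though not always of the same genes. The spermatogonia were the highest of the 5 groups for 32 of the 52 genes (61.5%), against 17.6% of all genes. The pachytene fraction was the lowest for 33 (63.5%), against 37.9%. The lowest group was ranked on the signals as read, for these and all genes alike. In some genes, such as Col4a4, it was thus ranked among several groups under the floor, whose order is not reliable. The signal decreased at both steps, from spermatogonia to leptotene/zygotene and from there to pachytene, in 31 genes (59.6%, against 24.1% of all genes). Among the 4 groups other than whole testis, the counts were again 32 (against 19% of all genes) and 33 (against 41.7%). No gene was highest in leptotene/zygotene (against 16.3%) or in whole testis (against 8.36%). The somatic mix was the highest group for 17 genes (32.7%, against 32.8% of all genes).

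**Figure D1:**
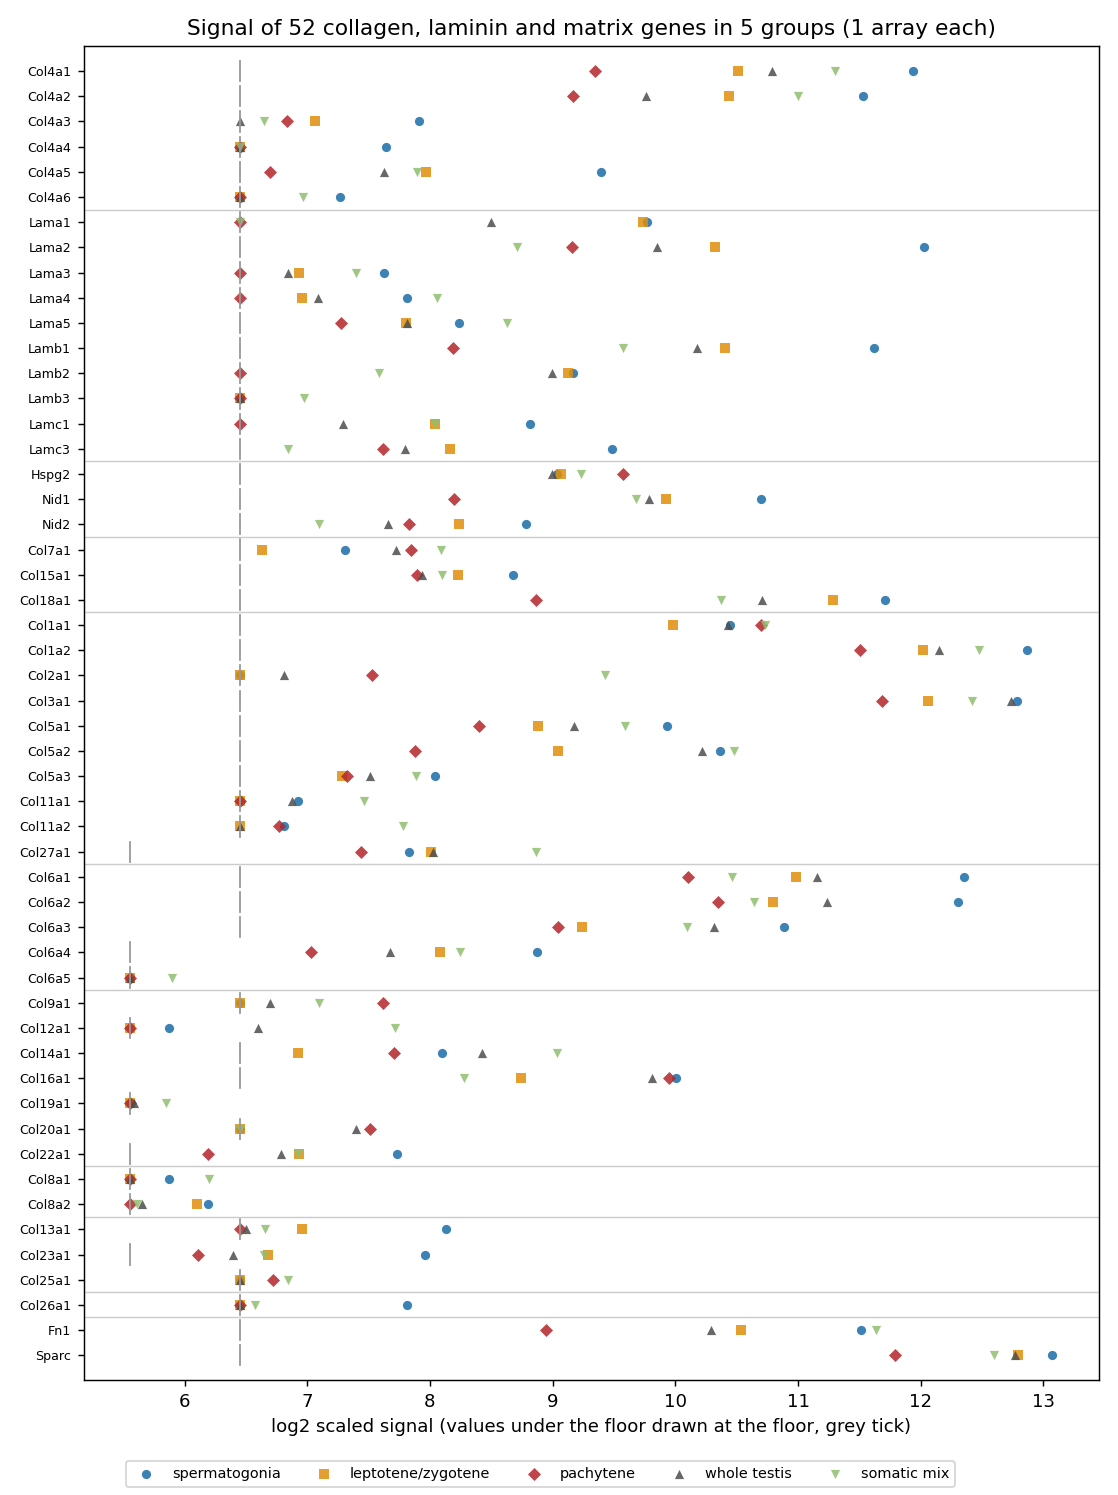
Scaled signal on a log2 axis of the 52 genes above the floor in at least 1 group, with 1 point per group and horizontal lines between gene classes. The spermatogonia point is the rightmost in 32 genes. The pachytene signal is the lowest in 33, but groups under the floor share 1 position, so in some genes its point is not alone. Positions of different genes are not comparable, since each comes from its own probe set.

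In leptotene/zygotene against spermatogonia, 17 of 45 measured genes were lower (37.8%), against 4.78% of all genes, and none was higher, against 3.41%. No gene passed 4-fold in either direction, where 0.31% of all genes rose and 0.279% fell. The median difference was -0.80 over the 45 genes and 0.02 over all 12916 genes. Of the 45, 43 had a difference below zero and 37 lay beyond the array error on that side. Among all genes the 25th percentile was -0.296 and the 5th was -0.979. Over the 38 genes above the floor in both groups the median was -0.82, beside 0.03 over all such genes. The others were measured only because spermatogonia passed the floor, so they could not have come out above zero. The range ran from -1.70 in Lama2 to 0.18 in Col27a1, so the group moved as a shallow, broad shift.

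In pachytene against leptotene/zygotene the spread between genes was wider. Of 43 measured genes 4 fell (9.3%, against 9.34% of all genes) and none rose (against 8.7%). At 2-fold, 14 genes were lower (32.6%, against 27.7%) and 5 were higher (11.6%, against 18%). The shares that fell or were lower were thus near those of all genes. The median was -0.52 beside -0.22 over all genes, and it depended on scaling: it was -0.10 with scaling on the 100 probe sets common to both designs, a choice that moved the median of all genes by 0.36, with 7 genes then higher and 7 lower. The genes that fell were the laminin chains Lama1, Lamb1 and Lamb2 and the endostatin precursor Col18a1. With scaling on the common probe sets, Lamb1 (-1.79) and Col18a1 (-2.0) no longer passed 4-fold, and with a floor at the 60th percentile the bound of Lama1 was -1.92 and that of Lamb2 -1.32.

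**Figure D2:**
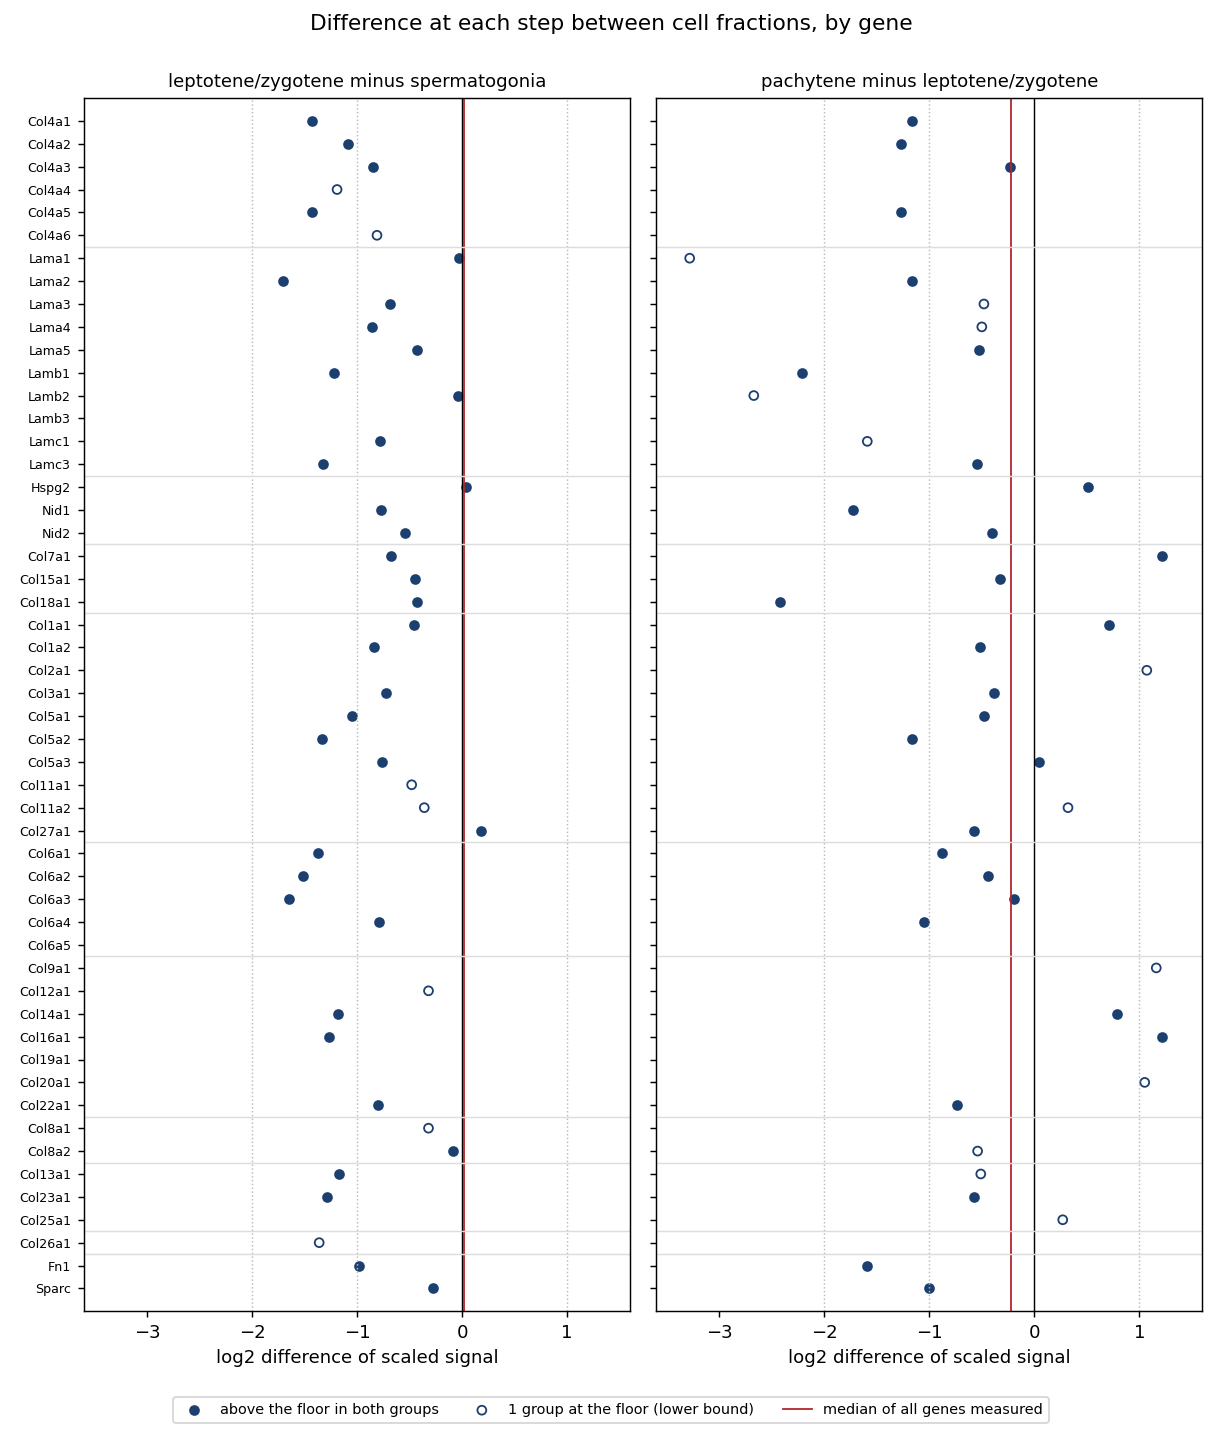
Log2 difference of scaled signal for each gene at both steps between the cell fractions, with open points for lower bounds and a red line at the median of all genes. At the first step the points run from -1.70 to 0.18, and at the second from -3.28 to 1.21.

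The whole testis is the unfractionated organ, of the same age as the pachytene fraction and older than the spermatogonia. Spermatogonia had 19 of 49 genes higher than whole testis (38.8%, against 12.3% of all genes) and none lower (against 13.4%). Of these Lama2 rose past 4-fold, which is 2.04% of the genes (against 1.97%), and none fell (against 5.17%). The median was 0.74 beside 0.00 over all genes. Pachytene spermatocytes had 12 of 46 genes lower than whole testis (26.1%, against 20.5%) and none higher (against 12.7%). Of these 3 fell (6.52%, against 4.38%) and none rose (against 2.35%), with a median of -0.60 beside -0.18. Those counts hold for the probe sets used. Other probe sets were higher in pachytene in Col4a4 (1.74), Col1a1 (1.59), Col4a3 (1.05) and Sparc (1.02). Further ones were lower, such as those of Col18a1 (-1.96) and Col1a2 (-1.73), and a second one of Col4a4 (-1.26). Whole testis against the somatic mix had 4 of 51 genes higher (7.84%, against 19.2%) and 5 lower (9.8%, against 18.4%), with a median of -0.26 beside -0.07. Lama1 rose there and Col2a1 fell (1.96% each, against 7.22% and 5.7% of all genes).

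The whole testis arrays stood apart in RNA quality. The ratio of the 3′ to the 5′ control probe set of Gapdh was 4.33 and 3.75 in whole testis on the 2 designs and between 1.07 and 1.52 in the other groups. Over 15 of these genes with a second measured probe set, the error between probe sets was 0.823 in spermatogonia against whole testis, and over 14 genes it was 0.365 in leptotene/zygotene against spermatogonia. Over all genes with such probe sets it was 0.540 and 0.309, and it was larger (0.657) in pachytene against leptotene/zygotene, where no whole testis array enters. Sparc shows this: 1 probe set read 6969 in whole testis and another 1251, although they read 8617 and 11121 in spermatogonia. The part of RNA quality in the whole testis differences was not tested.

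**Figure D3:**
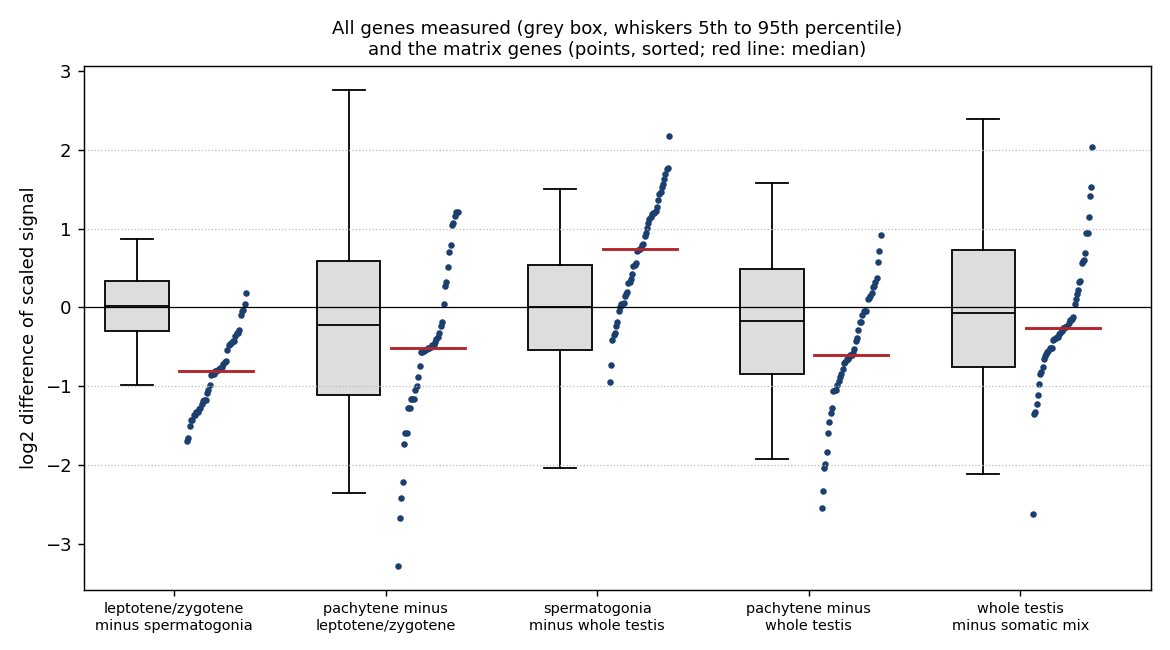
Log2 differences in the 5 comparisons, with a grey box for all genes measured (quartiles, and whiskers from the 5th to the 95th percentile) beside the points of these genes in sorted order and their median in red. The medians of -0.80 and 0.74 in the first and the third comparison lie outside the quartiles of all genes (-0.296 and 0.542 on the near side), and those of the other comparisons lie inside.

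Type IV collagen forms the network of every basement membrane, as trimers drawn from chains alpha 1 to alpha 6. All 6 chain genes were highest in spermatogonia. In leptotene/zygotene against spermatogonia 4 of the 6 were lower (against 4.78% of all genes), with a class median of -1.14. Col4a4, which is among the 4, and Col4a6 were measured there only because spermatogonia passed the floor. These genes could not have come out higher, and both enter the median as bounds. In pachytene against leptotene/zygotene 3 of 4 measured were lower (against 27.7%), with a median of -1.22. Col4a1, Col4a2 and Col4a5 were not past 2-fold at the second step with scaling on the common probe sets (-0.74, -0.85 and -0.84) or under median scaling (-0.79, -0.90 and -0.90). The chain genes lie in pairs that face away from each other on opposite strands. The promoter windows of the most widespread pair, Col4a1 and Col4a2, and of Col4a5 and Col4a6 are shown because the partners of a pair can then be read beside their signals (RefSeq, GRCm38.p6, 250 bases before to 50 after the start, 5′ to 3′ on the strand of the gene). In the first pair the capitals mark the overlap of the windows and in the second the matches to the CCAAT box or the GC box (GGGCGG) on either strand.
Col4a1, chr8:11312777-11313076, minus strand: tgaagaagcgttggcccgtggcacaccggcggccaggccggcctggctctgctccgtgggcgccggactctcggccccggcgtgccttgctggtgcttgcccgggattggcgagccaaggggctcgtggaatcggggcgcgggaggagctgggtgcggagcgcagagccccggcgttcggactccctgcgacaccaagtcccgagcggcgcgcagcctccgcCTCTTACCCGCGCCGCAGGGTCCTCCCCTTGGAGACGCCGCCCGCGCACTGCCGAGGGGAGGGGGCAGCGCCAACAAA
Col4a2, chr8:11312555-11312854, plus strand: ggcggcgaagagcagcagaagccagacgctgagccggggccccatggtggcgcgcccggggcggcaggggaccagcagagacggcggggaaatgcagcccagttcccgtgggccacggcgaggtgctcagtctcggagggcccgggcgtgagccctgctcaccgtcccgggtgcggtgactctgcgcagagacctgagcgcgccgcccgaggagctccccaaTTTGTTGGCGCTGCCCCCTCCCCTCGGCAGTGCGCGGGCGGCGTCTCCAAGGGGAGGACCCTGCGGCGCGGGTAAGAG
Col4a5, chrX:141475169-141475468, plus strand: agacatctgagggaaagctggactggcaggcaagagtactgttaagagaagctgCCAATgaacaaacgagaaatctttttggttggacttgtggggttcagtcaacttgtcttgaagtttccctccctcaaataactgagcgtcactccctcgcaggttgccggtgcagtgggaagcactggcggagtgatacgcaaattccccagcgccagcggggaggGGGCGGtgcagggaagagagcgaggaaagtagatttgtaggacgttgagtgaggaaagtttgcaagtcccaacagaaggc
Col4a6, chrX:141474027-141474326, minus strand: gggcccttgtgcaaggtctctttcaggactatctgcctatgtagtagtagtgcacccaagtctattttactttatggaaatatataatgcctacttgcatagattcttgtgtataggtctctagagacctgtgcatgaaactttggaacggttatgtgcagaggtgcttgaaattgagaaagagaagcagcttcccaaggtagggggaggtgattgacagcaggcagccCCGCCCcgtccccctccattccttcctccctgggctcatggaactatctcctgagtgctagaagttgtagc
The Col4a1 and Col4a2 windows share 78 bases, read in opposite directions, and their starts lie 21 bases apart. The starts of Col4a5 and Col4a6 lie 1343 bases apart and their windows do not overlap. The GC content of the windows was 74% and 73.7% in the first pair and 52.7% and 48.3% in the second.

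Col4a1, the alpha 1 chain, had a scaled signal of 3916 in spermatogonia, 1455 in leptotene/zygotene, 649.6 in pachytene, 1769 in whole testis and 2523 in the somatic mix. Col4a2, its partner in the common trimer, read 2956, 1386, 575 and 869.7 in the same order of the testis groups and 2047 in the somatic mix. Both were lower at each step, with differences of -1.43 and -1.16 in Col4a1 and of -1.09 and -1.27 in Col4a2, beyond the array error each time. In both genes the somatic mix lay between spermatogonia and whole testis.

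Col4a5, a chain of the trimers of specialised membranes, read 674 in spermatogonia, 249.8 in leptotene/zygotene, 104 in pachytene, 198 in whole testis and 237 in the somatic mix. Its differences were -1.43 and -1.27 at the 2 steps. The probe set used for its neighbour Col4a6 was above the floor in spermatogonia (154) and the somatic mix (125) and not in the other groups, a difference of at least 1.76-fold in leptotene/zygotene. The other Col4a6 probe set on that design read 158 in spermatogonia, 104 in whole testis and 93.9 in the somatic mix and was under the floor in leptotene/zygotene and pachytene. Both put spermatogonia highest, on signals near the floor.

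Col4a3 and Col4a4, mutated in Alport syndrome together with Col4a5, form the third pair. Col4a3 read 241 in spermatogonia, 134 in leptotene/zygotene, 114 in pachytene and 100.4 in the somatic mix, and was under the floor in whole testis on the first design. Its probe set on the second design passed the floor there in all 5 groups, with 389, 225 and 140.0 in the fractions, 67.6 in whole testis and 222 in the somatic mix. The Col4a4 probe set of the first design was above the floor in spermatogonia alone (199.7). A pair of probe sets of Col4a4 on the second design read 4330 and 5703 in spermatogonia, 1878 and 2088 in leptotene/zygotene and 597.5 and 657.5 in pachytene. Their differences, -1.21 and -1.45 at the first step and -1.65 and -1.67 at the second, matched the other chains in direction. In whole testis the same probe sets read 178.5 and 1576, so the excess of spermatogonia there was 4.60 by the former and 1.86 by the latter.

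Laminins give the basement membrane its first layer. Of the 10 chain genes 9 were above the floor in a testis group, and all 9 of these were highest in spermatogonia among the testis groups. In leptotene/zygotene against spermatogonia 3 of the 9 were lower (median -0.78), against 4.78% of all genes. In pachytene against leptotene/zygotene 3 of the 9 fell (against 9.34%) and 5 were at least 2-fold lower (against 27.7%), with a median of -1.16. Lamb3, the beta chain of the epidermal laminin, was above the floor in the somatic mix only (126).

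The chains followed different courses. Lama2, the alpha chain of muscle and peripheral nerve laminin, read 4166 in spermatogonia, 1279 in leptotene/zygotene, 572 in pachytene, 924 in whole testis and 418 in the somatic mix. It had the largest decrease of these genes at the first step (-1.70), a second one of -1.16, and, over the probe sets used, the largest excess over whole testis in spermatogonia (2.17, or 4.51-fold). Other probe sets of Col4a4 (4.60), Sparc (3.15), Hspg2 (2.53) and Col4a3 (2.52) gave more. The gamma 3 chain Lamc3 had a similar order, with 714.5, 286, 196, 222 and 115, and differences of -1.32 and -0.55. A second probe set of Lamc3 gave -1.34 and -0.80.

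Lama1, the alpha chain of embryonic laminin, did not follow that order. It read 873.5 in spermatogonia and 853 in leptotene/zygotene, was under the floor in pachytene (54.8) and in the somatic mix (48.4), and read 361 in whole testis. The first step was -0.03, within the array error, and at the second Lama1 fell at least 9.73-fold. It was also at least 4.12-fold higher in whole testis than in the somatic mix. Lamb2, the beta chain of kidney and synaptic laminins, had the same shape: 574, 559 and a pachytene signal under the floor (83.1), with 511 in whole testis and 191.5 in the somatic mix. Its first step was -0.04, and at the second it fell at least 6.38-fold.

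Lamb1, the most common beta chain, decreased at both steps, with signals of 3141, 1352 and 291 in the fractions, 1157 in whole testis and 763 in the somatic mix. The differences were -1.22 and -2.21, the latter 4.64-fold, or -1.36 as the mean over probe sets. The other probe sets of Lamb1 on the first design gave -1.55 and -1.43 at the first step. Lamc1, the most common gamma chain, read 451, 263 and then under the floor in pachytene (45.2), with 156 in whole testis and 264 in the somatic mix, a second step of at least 3.0-fold. The first steps of Lama3, Lama4 and Lama5 were -0.69, -0.86 and -0.43, and in each the pachytene signal was the lowest of the 5 groups. It was under the floor in Lama3 (84.5) and Lama4 (30.9). A second Lama4 probe set was at the floor in every group.

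**Figure D4:**
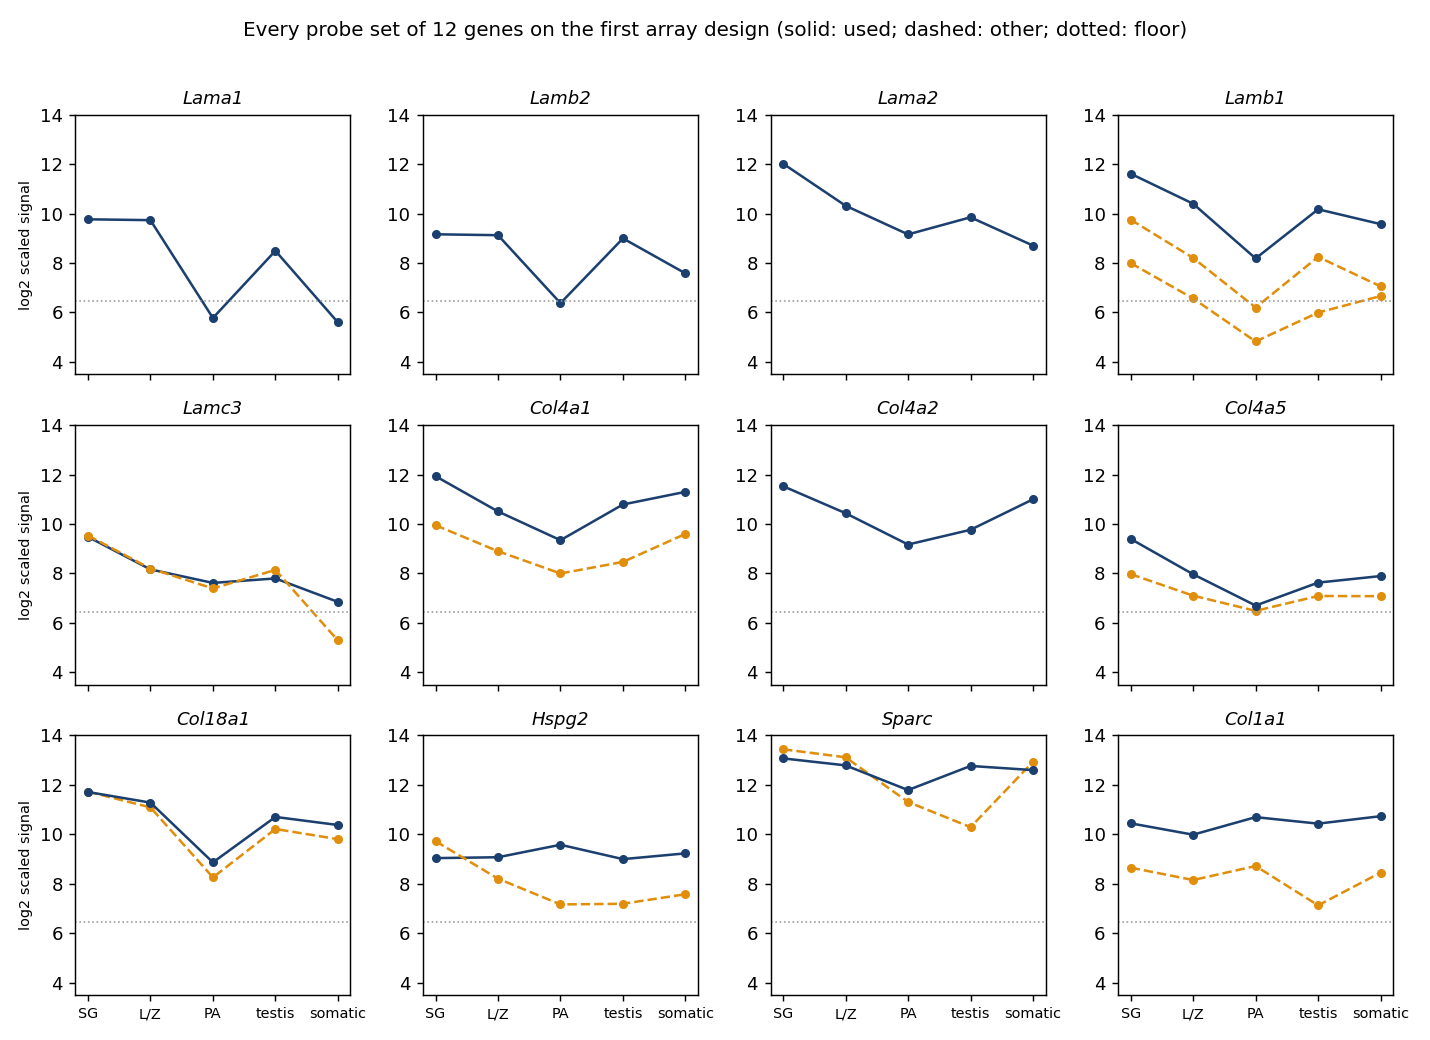
Log2 scaled signal of every probe set on the first design for 12 genes in spermatogonia (SG), leptotene/zygotene (L/Z), pachytene (PA), whole testis and the somatic mix, with the probe set used drawn solid, others dashed and the floor dotted. Lama1 and Lamb2 are level between the first groups and reach the floor in pachytene. The probe sets of Sparc and Col1a1 lie furthest apart in whole testis, and those of Hspg2 in pachytene.

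Nidogens bridge laminin and type IV collagen. Nid1 read 1657 in spermatogonia, 972 in leptotene/zygotene, 293 in pachytene, 882 in whole testis and 818 in the somatic mix, with steps of -0.77 and -1.73. Nid2 read 439, 301, 228, 201.5 and 136.5 in that order, with steps of -0.54 and -0.40. Perlecan, Hspg2, could not be settled: the brighter probe set was near level (525, 538, 763, 510.1 and 599.5), and the other read 844.5 in spermatogonia, 295 in leptotene/zygotene, 143 in pachytene, 146 in whole testis and 191 in the somatic mix. The first step was 0.04 by the former and -1.52 by the latter.

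Col18a1, a basement membrane collagen whose end fragment is endostatin, read 3354 in spermatogonia, 2492 in leptotene/zygotene, 465 in pachytene, 1667 in whole testis and 1329 in the somatic mix. It fell 5.35-fold at the second step (-2.42) after -0.43 at the first, and its other probe set gave -2.83 and -0.64. Its relative Col15a1 moved little, with steps of -0.45 and -0.33. Col7a1, the anchoring fibril collagen of skin, went the other way at the second step: it read 159, 99.03, 229.5, 211 and 272, and pachytene exceeded leptotene/zygotene by 1.21.

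The fibrillar collagens form the banded fibres of connective tissue. Of 9 measured, 2 were lower in leptotene/zygotene than in spermatogonia (median -0.72), against 4.78% of all genes. At the second step 1 was lower (against 27.7%) and 1 higher (against 18%), with a median of -0.38. Col1a2, a chain of type I collagen, read 7472 in spermatogonia, 4160 in leptotene/zygotene, 2903 in pachytene, 4552 in whole testis and 5693 in the somatic mix. Col3a1, the type III chain, read 7049, 4272, 3282, 6824 and 5474. Their first steps were -0.84 and -0.72, their second -0.52 and -0.38, the latter within the array error of 0.407. The other probe set of each on the first design gave larger second steps, beyond that error. These were -0.92 in Col1a2 and -0.93 in Col3a1, after first steps of -0.86 and -1.18. Col1a1, the other type I chain, named after its values were seen, read 1393, 1013, 1657, 1381 and 1702, and thus had its lowest signal in leptotene/zygotene. Both of its probe sets had that order in the fractions (0.71 and 0.57 at the second step).

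Col5a2, a chain of the type V collagen that starts fibrils, read 1321, 527 and 236 in the fractions, 1188 in whole testis and 1426 in the somatic mix. It was 5.04-fold lower in pachytene than in whole testis, and its other probe set gave -1.48 there, which is not past 4-fold. Col2a1, the cartilage collagen, was at the floor in spermatogonia and leptotene/zygotene and read 184 in pachytene, 112 in whole testis and 689 in the somatic mix. Whole testis was 6.15-fold below the somatic mix.

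Type VI collagen makes beaded filaments next to basement membranes. Col6a1, Col6a2 and Col6a3, named after their values were seen, were lower in leptotene/zygotene by -1.37, -1.51 and -1.65, the class with the lowest median among those with at least 3 measured genes (-1.44). Col6a1 read 5242 in spermatogonia, 2030 in leptotene/zygotene, 1102 in pachytene, 2275 in whole testis and 1410 in the somatic mix. Col6a2 read 5063, 1774, 1305, 2408 and 1595. At the second step the 3 genes differed by -0.88, -0.44 and -0.19, less than at the first. The fourth chain measured, Col6a4, gave -0.79 at the first step and -1.05 at the second. Its other probe set gave -0.37 and -0.26, so which of its steps was the larger was not settled.

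The fibril-associated (FACIT) collagens held 3 of the 5 genes that were at least 2-fold higher in pachytene than in leptotene/zygotene. They were 3 of the 5 FACIT genes measured (median 1.05), against 18% of all genes, and the class had 9 genes. Col9a1 and Col20a1 were measured at this step only because pachytene passed the floor, so they could not have come out lower. The median is the lower bound of Col20a1, and the share of 3 in 5 therefore says little about the class. Col16a1 read 1029 in spermatogonia, 427 in leptotene/zygotene, 989 in pachytene, 898 in whole testis and 310 in the somatic mix, a decrease of -1.27 followed by an increase of 1.21. Col9a1, a chain of a cartilage collagen, was at the floor in the first fractions and read 196 in pachytene, 104 in whole testis and 137 in the somatic mix. Its other probe set also passed the floor in pachytene (123.5) and not in the earlier fractions. Col20a1 was above the floor in pachytene (182) and whole testis (169) alone, and a second probe set had the same pattern (165 and 118). The 2-fold calls of Col9a1 and Col20a1 rest on signals close to the floor.

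Fibronectin, Fn1, links cells to collagen through integrins. It read 2924 in spermatogonia, 1484 in leptotene/zygotene, 494 in pachytene, 1251 in whole testis and 3179 in the somatic mix, with steps of -0.98 and -1.59. Sparc, a collagen-binding glycoprotein made by Sertoli and Leydig cells, read 8617, 7085, 3541, 6969 and 6204. Its first step of -0.28 lay within the array error and its second was -1.0, or -1.81 by the other probe set.

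Among the transmembrane collagens 2 of 2 measured were lower in leptotene/zygotene than in spermatogonia (median -1.23), against 4.78% of all genes. No short chain network collagen passed 2-fold in any comparison, but several of their differences are lower bounds. Of the genes at the floor in every group, Col10a1, Col9a2 and Col9a3 encode cartilage collagens and Col17a1 a collagen of the hemidesmosomes of skin.

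Promoter windows were found for 41 of the 57 genes, 45 windows in all. The GC box, searched as GGGCGG on both strands, occurred in 60% of them, against 35.7% of the 32851 windows of all genes. The median GC content was 59.7% and 52.7%. The CCAAT box (CCAAT) occurred in 33.3%, against 37.4%, and the TATA box (TATAAA) in 11.1%, against 13.6%. These counts describe letters in the windows and do not mark bound sites.

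Genes that process, bind or cut the matrix were counted in the same way, beside 4.78% of all genes lower and 3.41% higher at the first step and 27.7% and 18% at the second. The shares of all genes that fell were 0.279% at the first step and 9.34% at the second. Of the enzymes that modify and crosslink collagen, 8 of 25 were lower in leptotene/zygotene than in spermatogonia (median -0.60) and none was higher. The crosslinking enzyme Lox read 584 and 166 there, and the collagen chaperone Serpinh1 read 1273 and 507. At the pachytene step 4 of 26 fell and 13 were at least 2-fold lower (median -1.02). Plod2, which hydroxylates lysines for crosslinks, read 1726 in leptotene/zygotene and 189.9 in pachytene.

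Of the matrix receptors, 6 of 21 were lower at the first step (median -0.62) and 8 of 21 at the second (median -0.78, beside -0.22 over all genes), and none was higher at either. Itga8, an integrin alpha chain that pairs with beta 1, fell from 480.1 to 102 at the first step, and the syndecan Sdc4 from 1260 to 194 at the second. Of the other matrix proteins 16 of 29 were lower at the first step (median -1.17), among them elastin, Eln, from 2744 to 696. At the second step 9 of 25 were lower and 3 higher. Egflam (pikachurin), a matrix protein of photoreceptor synapses, was 1.70 higher in pachytene. Of the proteases and inhibitors 6 of 15 were lower at the first step (median -0.90) and 9 of 13 at the second (median -1.65), with the gelatinase Mmp2 at 1931 and 465 at the first step and the inhibitor Timp3 at 1841 and 376.5 at the second.

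Markers of several somatic cell types of the testis also differed between the fractions. Their counts stand beside the shares of all genes given above for each step. As a check of the labels, the summed signal of 12 meiotic markers was 2333 in spermatogonia, 8517 in leptotene/zygotene, 58902 in pachytene, 36091 in whole testis and 630 in the somatic mix. Ldhc alone made 23494 of the pachytene sum, and Dmc1, Sycp1, Sycp3 and Hormad1 read less in pachytene than in leptotene/zygotene. Of 15 meiotic markers measured at that step on either design, 9 were higher and 1 was lower. Spermatogonial markers were less selective: 7 of 7 were above the floor in the spermatogonia, but their sum was 4568 there, 8093 in leptotene/zygotene and 5548 in pachytene. Most of the pachytene sum came from Dmrtb1 (4425), and 9 of 10 markers measured on either design were lower in pachytene than in leptotene/zygotene (median -2.32, 6 fallen). Markers of peritubular myoid cells, such as Acta2 and Myh11, had a median of -1.07 at the first step (7 of 11 lower) and -1.0 at the second (5 of 10 lower). Their summed signal was 42261 in spermatogonia, 19257 in leptotene/zygotene and 7065 in pachytene. Stromal fibroblast markers had medians of -0.82 and -1.09, with sums of 10846, 6022 and 2982. Dcn, Lum, Dpt and Mfap5 of this list were also counted above among the other matrix proteins, so these lists are not separate.

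Sertoli markers divided the steps unequally. At the first step their median was -0.21, none of 13 was lower and 1, Rhox5, rose from 317.5 to 1479, while at the second it was -2.44, with 8 of 13 fallen and 12 at least 2-fold lower. Their sum was 40373 in spermatogonia, 35874 in leptotene/zygotene and 9301 in pachytene, with Wt1 at 1284, 1090 and 124. Lama1, Lamb2 and Col18a1 had first steps of -0.03, -0.04 and -0.43 and second steps of -3.28, -2.67 and -2.42, the first and second of these being bounds. Other basement membrane genes divided the steps otherwise. Lamb1 decreased at both (-1.22 and -2.21), Lama5 about equally (-0.43 and -0.53), and Lama2 (-1.70 and -1.16) and Lamc3 (-1.32 and -0.55) more at the first. Col6a1, Col6a2 and Col6a3 had the larger part of their decrease at the first step. Leydig markers had medians of -0.79 and -2.23, so the larger decrease at the second step was not particular to Sertoli markers. Of the endothelial markers, Pecam1, Tie1 and Flt1 were at the floor in every testis group, and the medians were -0.62 and -0.22. Macrophage markers were higher at both steps in 5 and 4 of 9 genes, with medians of 1.05 and 0.78. In spermatogonia against whole testis, where the matrix genes had a median of 0.74, Sertoli markers had 1.33 and Leydig markers 1.28. Stromal fibroblast, endothelial and peritubular markers had 0.93, 0.76 and 0.75 there. Spermatogonial markers had 0.64 and macrophage markers -1.88.

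**Figure D5:**
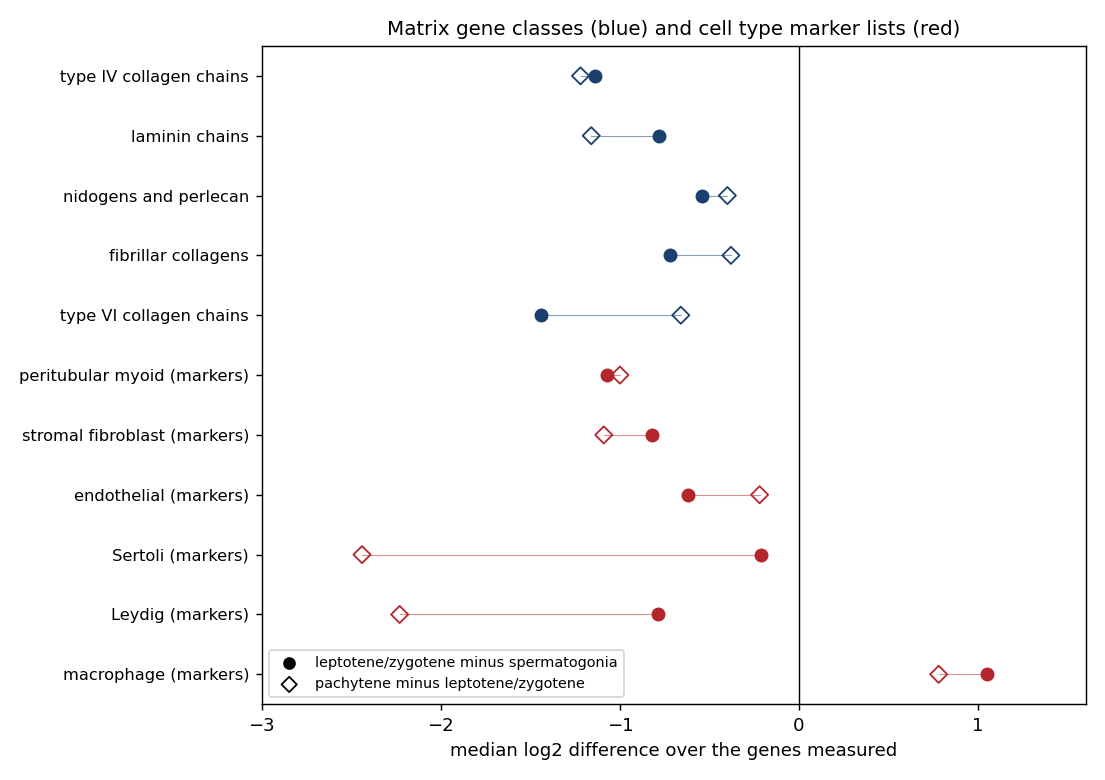
Median log2 difference over the measured genes of 5 matrix classes (blue) and 6 marker lists of other cell types (red), with filled circles for leptotene/zygotene minus spermatogonia and open diamonds for pachytene minus leptotene/zygotene. Sertoli markers lie at -0.21 and -2.44, peritubular markers at -1.07 and -1.0, and type VI chains at -1.44 and -0.66.

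The part of these other cells in the differences of the matrix genes was not tested, and in bulk samples fewer cells of a type and less RNA per cell cannot be told apart. Fraction and age also changed together, so that stage and age cannot be told apart in any difference between the fractions.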

How the data were processed

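The deposited values are intensities per probe set on a linear scale, made by the authors with GCOS 1 per the submitters' processing notes. Their scaling target, background correction and detection calls are not known here. Each of the 5 groups had 2 samples, 1 on each of 2 array designs, normalized separately. The labels do not say whether these were separate preparations, and the number of arrays limits the precision.

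Each array was scaled to the mean of the 2% trimmed means of its design (Python 3.11.15, numpy 2.4.6, pandas 2.3.3). The floor of the first design was the 90th percentile over 68 probe sets of chemosensory receptors. The second held 15 of these, under the minimum of 20, and took the median of all signals. A gene was read from the probe set of 1 gene with the highest mean log2 signal, and the first design had priority where the gene passed the floor on it. Symbols came from the platform annotation updated through the RefSeq gene table, and 20351 of 20380 and 14486 of 14661 probe sets naming 1 gene were matched. For the array error, 100 probe sets on both designs gave the root mean square of the gap between designs, which was divided by √2 and multiplied by 1.96 for the limit. The scripts were tested on simulated data.

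Members, gene lists and rules were chosen with earlier results of these data known. Named were members that passed 4-fold in some comparison, basement membrane genes above the floor in the testis, Fn1, Sparc, members at least 2-fold higher in pachytene, and the 6 with the highest signal in the somatic mix. From each other list, the 3 with the largest differences per comparison could be named. Alternatives were quantile and median scaling, no scaling, scaling on the common probe sets, other floors, a log2 with the floor added, averaging of a gene's probe sets, plain probe sets alone, and each design alone.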

Additional observations from a re-analysis of the deposited data

How the results depend on the processing

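No paired analysis was possible because the results come from no test, with 1 array per group on each design. For the 56 differences of named members of at least 2-fold, none of 560 values under the alternatives changed direction. This is a weak check, because most alternatives reuse the same probe sets and arrays. The named members were all read from the first design, so the 56 values without replicate 2 repeat the main values by construction. Without replicate 1 only 8 values existed, and all 8 moved in size. Smaller differences were not run, and probe sets of a gene differed in sign in some, as in Hspg2 at both steps between the fractions (0.04 and -1.52, 0.51 and -1.04) and Sparc in pachytene against whole testis (-0.98 and 1.02). In leptotene/zygotene against spermatogonia, between 12 and 18 members were at least 2-fold lower and none higher under the 9 alternatives that kept both designs, with medians from -0.64 to -0.84. In pachytene against leptotene/zygotene the median was -0.16 under median scaling, -0.74 for values as deposited and -0.10 when scaled to shared probe sets, against -0.52. The 4 genes past 4-fold were 2 when scaled to shared probe sets, 2 with a floor at the 60th percentile and 2 with the log2 of signal plus floor. The 19 genes past 2-fold were 12 with the log2 of signal plus floor and 11 with the mean over probe sets. The split of 5 higher and 14 lower was 7 and 7 under median scaling or shared probe sets, 6 and 10 under quantile normalization and 1 and 14 for values as deposited. In pachytene against whole testis the median of -0.60 was -0.24 under median scaling, and the 3 genes past 4-fold were 5 for values as deposited, 1 with the floor at the 60th percentile and 0 with signal plus floor. In whole testis against the somatic mix the 2 genes past 4-fold were 1 when scaled to shared probe sets, 1 with plain probe sets, 0 with the floor at the 60th percentile and 0 with signal plus floor. These scalings moved the median of all genes by up to 0.36. Without replicate 1 or replicate 2 of each group, which leaves 1 design, the counts past 2-fold ran from 3 to 16 in leptotene/zygotene against spermatogonia, 2 to 18 in pachytene against leptotene/zygotene, 4 to 17 in spermatogonia against whole testis, 4 to 11 in pachytene against whole testis and 5 to 8 in whole testis against the somatic mix. Counts past 4-fold ran from 0 to 4, 0 to 3 and 0 to 2 in pachytene against leptotene/zygotene, pachytene against whole testis and whole testis against the somatic mix, the median in pachytene against whole testis from -0.63 to -0.29, the number highest in spermatogonia from 7 to 28 and the number lowest in pachytene from 10 to 26. Without whole testis the latter numbers were 32 and 33, as with it. The alternatives for counts past 2-fold and for the highest and lowest group were chosen after seeing the data. The second design alone measures few of these genes (13 to 15 in most comparisons), which lowers each count by construction. The causes of the other shifts were not tested.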
